A study of Homo sapiens with 24 samples.

Results

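The measurements cover the second day of doxycycline in D425 cells that carry an inducible short hairpin RNA against OTX2 (shOTX2), from 24 h to 48 h. D425 is an established human medulloblastoma line, and doxycycline is the drug that switches the hairpin on. Of the 24 arrays of the series, 6 belong to this step by their labels: the shOTX2 cells of 3 independent time courses at 24 h and the same 3 courses at 48 h, joined in pairs by course number. The series holds the 3 shOTX2 courses and 1 control course, each sampled at 0, 8, 16, 24, 48 and 96 h. The control cells also received doxycycline, and their 2 arrays at 24 h and 48 h give the background of time in culture with the drug. All cells grew in MEM with fetal calf serum and were plated 24 h before the drug was added. The labels call the control cells no more than control, and whether either line is 1 clone is not stated. With 1 control course, the control values have no spread of their own.

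OTX2 is a homeodomain transcription factor of the early brain and retina that is often highly expressed in medulloblastomas of group 3 and group 4. Dividing cells copy their DNA in S phase with genes driven by E2F factors, and divide in mitosis with genes that the MuvB complex switches on together with MYBL2 and FOXM1. When cells leave the cycle, retinoblastoma family proteins and MuvB (as the DREAM complex) hold both sets of genes silent. Neuronal precursors leave the cycle while proneural factors and Notch ligands act, and then make cytoskeletal, adhesion and synaptic proteins. Signals below are the authors' MAS5 values, a probe set's brightness after each array was scaled to the same trimmed mean. Changes are differences of log2(signal + 16), with the mean of 3 courses and its standard error. A gene counts as called when limma's moderated test, with the course as a block, gave an adjusted p under 0.05, and triplets of signals follow the order of courses 1, 2 and 3.

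OTX2 itself was not called between the 2 times. Its signal was 3787, 4292 and 4077 at 24 h and 4083, 4374 and 4205 at 48 h, and the ranges overlapped (log2 change 0.06 ± 0.065 (SE), adjusted p = 0.657). The control course had 5194 at 24 h and 4902 at 48 h. The mean of the shOTX2 courses at 0 h was 4659 ± 218 (SD, n = 3). All 3 shOTX2 courses thus read OTX2 below the control at both times. Of the OTX family (OTX1, OTX2 and CRX), limma called 0 of 3, with 1 at an unadjusted p under 0.05. Over all genes limma called 8.37% higher and 10.1% lower, and 13.9% and 15.3% passed an unadjusted p under 0.05. CRX, which drives photoreceptor genes, read 322, 246 and 441 at 24 h and 568, 403 and 377 at 48 h, with overlapping ranges (log2 change 0.42 ± 0.16 (SE), adjusted p = 0.0889).

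Between 24 h and 48 h, 1656 of 19775 genes (8.37%) were called higher and 1992 (10.1%) lower, 3648 in all (18.4%). Over single probe sets, 6144 of 41091 (15%) were called. The rises were the larger: 338 called genes were at least 2-fold higher and 227 at least 2-fold lower, 59 were at least 4-fold higher and 2 at least 4-fold lower. All 3 courses moved the same way for 3644 of the 3648 called genes. The calls rest on the same courses, so this count is a description. Signals at 48 h lay wholly above those at 24 h for 1430 of the genes called higher, and wholly below for 1676 of those called lower. Over all genes, called or not, the shares were 12.9% wholly above and 13% wholly below. The counts among called genes follow in part from the call. The signal was not above its array's median in any 24 h array for 66 of the higher genes, nor in any 48 h array for 33 of the lower genes. The median over all genes was 0.0099. In bulk RNA, fewer cells of a type and less RNA per cell cannot be told apart, and this holds for every change below. The median signal of the shOTX2 arrays was 16.7 to 18.4 at 24 h and 19 to 20.6 at 48 h, and 19 and 20.2 in the control. The shOTX2 ranges do not overlap, and the part of this shift in the results was tested only by centring the arrays and by quantile normalization. The 3′ to 5′ signal ratio of actin, a sign of RNA quality, was 1.51 to 1.98 at 24 h and 1.35 to 2.20 at 48 h. With each array centred on its median, 1182 genes were called higher and 2650 lower, against 1656 and 1992 without centring. Quantile normalization between arrays gave 1624 higher and 2043 lower. The split between rises and falls thus depended on centring and changed little with quantile normalization.

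Genes of mitosis were lower at 48 h in nearly every case. Of 82 G2/M genes with a probe set, 79 were called lower and 1 higher, against 10.1% and 8.37% of all genes, and their median change was -1.05. Separately by course the median was -1.34, -0.99 and -0.80. In the control course the same genes had a median of 0.27, with 65 of 82 above 0. The counts were 79 lower and 1 higher with median centring too, and between 71 and 78 lower when 1 course was left out.

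The promoters of 4 members of this list are shown, as given by RefSeq on GRCh38.p14. They come from the members with the largest called falls. Members without a promoter in the table, and those on 1 chromosome left out of the choice, were skipped. Members without either motif marked below were passed over too. That each run holds a marked motif thus follows from the choice. Each run is the 150 bases before the annotated start, 5′ to 3′ on the gene's strand. Capitals mark CCAAT, the box read by the factor NF-Y, and TTTGAA, the core of the CHR element that MuvB complexes read, with both strands searched.
NCAPH: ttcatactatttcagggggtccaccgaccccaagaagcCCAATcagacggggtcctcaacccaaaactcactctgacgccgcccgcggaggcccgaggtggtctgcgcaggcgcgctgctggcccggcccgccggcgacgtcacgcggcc
SPC25: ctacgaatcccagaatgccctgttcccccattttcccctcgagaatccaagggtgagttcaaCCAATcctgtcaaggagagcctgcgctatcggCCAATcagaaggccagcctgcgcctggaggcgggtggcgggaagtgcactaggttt
CDK1: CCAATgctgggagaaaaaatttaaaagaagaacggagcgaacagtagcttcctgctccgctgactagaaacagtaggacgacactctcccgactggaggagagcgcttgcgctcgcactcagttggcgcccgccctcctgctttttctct
PLK1: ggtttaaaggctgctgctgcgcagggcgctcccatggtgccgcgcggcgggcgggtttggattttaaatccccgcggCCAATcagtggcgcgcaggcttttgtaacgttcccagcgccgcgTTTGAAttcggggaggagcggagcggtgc
The NCAPH run is chr2:96335616-96335765 on the plus strand, with CCAAT beginning 112 bases before the start. SPC25 lies on the minus strand at chr2:168890431-168890580, with CCAAT 88 and 56 bases before the start. The CDK1 run is chr10:60778181-60778330, plus strand, with CCAAT at its first base, 150 before the start. PLK1, at chr16:23678739-23678888 on the plus strand, has TTTGAA 29 and CCAAT 73 bases before the start. Over 250 bases before the start, 32 of 70 G2/M genes with a promoter in the table (45.7%) held TTTGAA on either strand, against 10.6% of the 15360 promoters of all genes tested. CCAAT stood in 67.1% of the G2/M promoters and in 34.1% of all. Both stood in 38.6% and 4% respectively. Matches of the 2 motifs can share at most 1 base, and a match is a description of the sequence only.

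The kinases and cyclins that drive mitosis were all called lower, 19 of 19. CDK1, the main mitotic kinase, read 2014, 1971 and 1329 at 24 h and 594, 709 and 664 at 48 h, with all 48 h arrays below all 24 h arrays (log2 change -1.39 ± 0.20 (SE), adjusted p = 0.000134). Its partner CCNB1 read 1370, 1324 and 1092 at 24 h and 489, 619 and 552 at 48 h and also separated completely (log2 change -1.17 ± 0.16 (SE), adjusted p = 7.71e-05). PLK1, which acts at mitotic entry and in the spindle, read 711, 326 and 359.5 at 24 h and 209, 184 and 117 at 48 h (log2 change -1.32 ± 0.17 (SE), adjusted p = 3.96e-05). The control course gave CDK1 signals of 1428 at 24 h and 1356 at 48 h. AURKB (-1.26), the kinase of the chromosomal passenger complex, BUB1B (-1.30), a spindle checkpoint kinase, and WEE1 (-1.21), which restrains CDK1, fell by similar amounts.

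Among factors that switch these genes on, MYBL2 read 416, 181 and 124 at 24 h and 93.5, 53.4 and 69.2 at 48 h (log2 change -1.40 ± 0.29 (SE), adjusted p = 0.00279) and FOXM1 324, 223 and 189.9 at 24 h and 80.1, 128 and 84.8 at 48 h (log2 change -1.20 ± 0.16 (SE), adjusted p = 6.39e-05). Both were lower in all 3 courses at 48 h. LIN9, a subunit of MuvB, was close to the threshold (log2 change -0.58 ± 0.19 (SE), adjusted p = 0.0495). All 6 members of the anaphase promoting complex group fell, among them CDC20 (-1.27), its activator, and PTTG1 (-0.72), the securin that it destroys. MYBL2 was not called without course 2 (adjusted p = 0.0683). LIN9 was not called without course 1, 2 or 3 or without the course block (adjusted p from 0.0754 to 0.313).

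Structural parts of the dividing cell fell as well: 13 of 13 kinesins, 16 of 18 kinetochore genes, 13 of 14 spindle and cytokinesis genes, and 9 of 9 genes of chromosome condensation. NCAPH, a condensin subunit, had the largest fall of the list and read 412, 291 and 272 at 24 h and 99.4, 94.0 and 103 at 48 h (log2 change -1.55 ± 0.20 (SE), adjusted p = 5.98e-05). SPC25, a kinetochore protein that helps hold microtubules, read 335, 381 and 255 at 24 h and 90.2, 116 and 111 at 48 h (log2 change -1.47 ± 0.14 (SE), adjusted p = 4.50e-06). MKI67, the gene of the Ki-67 antigen that coats mitotic chromosomes, read 434, 393 and 317 at 24 h and 172, 179 and 130.4 at 48 h (log2 change -1.17 ± 0.11 (SE), adjusted p = 2.41e-06). The 48 h signals of all 3 lay below every 24 h signal. INCENP (-0.22, adjusted p = 0.49) and SKA3 (-0.38, adjusted p = 0.127) were the members not called. STMN1, which destabilizes microtubules and is also abundant in young neurons, was the one that rose: 2868, 2906 and 3000 at 24 h and 3866, 4086 and 4249 at 48 h (log2 change 0.47 ± 0.08 (SE), adjusted p = 0.000548).

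DNA replication genes fell with them. Of 60 G1/S genes, 53 were called lower and 0 higher (background 10.1% and 8.37%), with a median of -0.91 and course medians of -1.04, -0.97 and -0.74. The control median was 0.11. At an unadjusted p under 0.05, limma still gave 0 higher and 56 lower, where all genes gave 13.9% higher and 15.3% lower. The signals at 48 h lay wholly below those at 24 h for 53 of the 60 genes, and for 13% of all genes. The count of falls was 55 with median centring and 43 to 53 with 1 course left out.

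By role, 10 of 11 licensing genes fell. MCM2, of the ring-shaped helicase loaded at origins, read 1200, 917 and 877 at 24 h and 378, 323 and 319.8 at 48 h (log2 change -1.50 ± 0.11 (SE), adjusted p = 1.84e-07), and CDC6, which helps load it, read 642, 543 and 433 at 24 h and 214, 162 and 168 at 48 h (log2 change -1.48 ± 0.18 (SE), adjusted p = 2.35e-05). For both genes no 48 h signal reached the lowest 24 h signal. ORC6 of the origin recognition complex read 494, 572 and 498 at 24 h and 475, 488 and 528 at 48 h and was not called (adjusted p = 0.86). Of 11 genes of helicase activation 9 fell, led by MCM10, with 331, 388 and 279.7 at 24 h and 111, 119.5 and 115 at 48 h (log2 change -1.40 ± 0.18 (SE), adjusted p = 4.76e-05). CLSPN and RECQL4 were not called (adjusted p = 0.509 and 0.107).

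All 17 polymerase and clamp genes fell, from POLE2 at -1.40 to RPA2 at -0.48. PCNA, the sliding clamp, read 2023, 2148 and 1696 at 24 h and 1106, 1170 and 1158 at 48 h (log2 change -0.76 ± 0.09 (SE), adjusted p = 2.18e-05). All 5 genes that rebuild chromatin behind the fork fell, including UHRF1 (-1.07) and DNMT1 (-0.94), which copy DNA methylation. Of 7 E2F pathway members 5 fell, among them E2F2 (-0.94) and TFDP1 (-0.80), the partner of E2F proteins. E2F1 (-0.32, adjusted p = 0.305) and RBL1 (-0.57, adjusted p = 0.0763) were not called. Of 9 G1 and S cyclins, kinases and phosphatases, 7 fell, including CCND3 (-0.92) and CDC25A (-0.97), and CCNE2 and CDK4 were not called (adjusted p = 0.485 and 0.0507). CCND2, which encodes cyclin D2 and lies outside these lists, read 4.3, 14.6 and 2.6 at 24 h and 9.1, 2.8 and 15.3 at 48 h (log2 change 0.12 ± 0.30 (SE), adjusted p = 0.885). These signals are below the array medians, and the probe set was above them on only 3 of 24 arrays. In the 250 bases before the start, TTCCCGC or TTGGCGC, forms of the E2F site, stood in 46% of the 50 G1/S promoters, in 21.4% of the G2/M promoters and in 10.5% of those of all genes tested, on either strand. Read on the other strand, TTGGCGC can share 4 bases with CCAAT.

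The state of both lists before the step is given next. Against each course's own 0 h array, the G2/M median was -0.0093, -0.046 and -0.35 at 24 h and -1.35, -1.08 and -1.17 at 48 h. The G1/S median was -0.30, -0.35 and -0.46 at 24 h and -1.36, -1.31 and -1.10 at 48 h. The control course had G2/M medians of -0.45 and -0.16, and G1/S medians of -0.31 and -0.14. At 24 h the control lay below all 3 shOTX2 courses in the G2/M list and within their range in the G1/S list. At 48 h it lay above all 3 in both lists. Whether the 2 lists differed in timing was not tested.

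**Figure D1:**
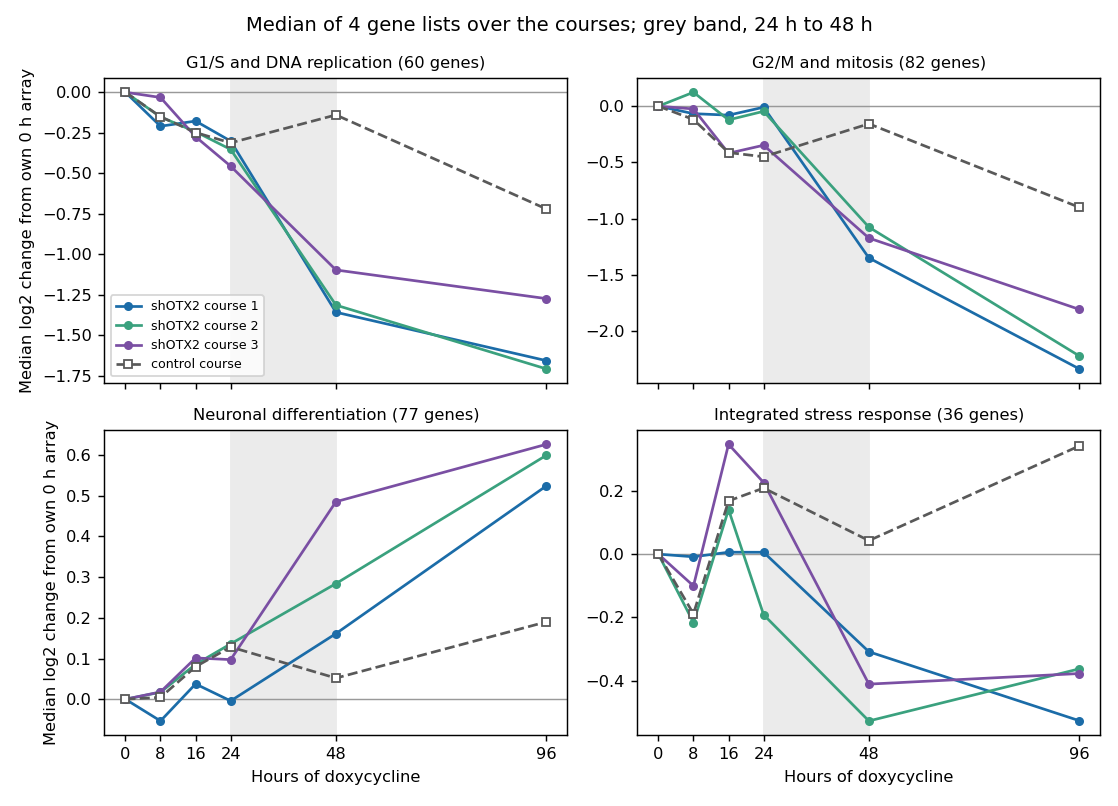
Median log2 change of each of 4 gene lists from the course's own 0 h array, against hours of doxycycline, with 1 line for each of the 3 shOTX2 courses (filled circles) and a dashed line for the control course (open squares); the grey band spans 24 h to 48 h. In the G2/M panel the shOTX2 lines lie between -0.35 and -0.01 at 24 h and between -1.35 and -1.08 at 48 h, while the control goes from -0.45 to -0.16.

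Of the inhibitors of the cycle, 3 of 25 were called higher and 2 lower (background 8.37% and 10.1%), with a median of 0.05. The higher count was 6 without course 3, 2 without course 2 and 1 without the block. CDKN1A, which encodes the kinase inhibitor p21, read 106, 66.5 and 47.4 at 24 h and 332, 212 and 181 at 48 h (log2 change 1.54 ± 0.25 (SE), adjusted p = 0.000404), with all 48 h arrays above all 24 h arrays. The control read 57.7 at 24 h and 52.7 at 48 h, but CDKN1A was not called against the control. TOB1 (0.62) and BTG1 (0.38), antiproliferative adaptors, also rose. CDKN1B, the gene of p27, was not called (log2 change 0.24 ± 0.098 (SE), adjusted p = 0.123). MXD3 (-0.81), a transcriptional repressor of dividing precursors, and BTG3 (-0.50, whose probe sets differ in sign) fell. CDKN1A and TOB1 were not called without the course block (adjusted p = 0.0857 and 0.0628). BTG1 was not called without course 2 (adjusted p = 0.0601). MXD3 was not called without course 1 or 2 (adjusted p = 0.167 and 0.1).

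Genes for making DNA precursors fell: 18 of 28 members of the nucleotide and one-carbon list were lower and 1 higher (background 10.1% and 8.37%), median -0.48 against 0.20 in the control. All 6 deoxynucleotide enzymes fell. TYMS, which makes thymidylate, read 2852, 2590 and 2056 at 24 h and 1009, 1119 and 901 at 48 h (log2 change -1.29 ± 0.13 (SE), adjusted p = 6.46e-06), and RRM2, the regulated subunit of ribonucleotide reductase, read 2115, 2578 and 1914 at 24 h and 863, 1085 and 1014 at 48 h (log2 change -1.14 ± 0.15 (SE), adjusted p = 6.73e-05). Among serine enzymes, PSAT1 read 304, 423 and 717 at 24 h and 154, 128 and 157 at 48 h (log2 change -1.53 ± 0.23 (SE), adjusted p = 0.000225) and PHGDH changed by -1.09. GMPS, of guanine nucleotide synthesis, was the exception with 352, 251 and 276 at 24 h and 510.0, 503 and 473 at 48 h (log2 change 0.74 ± 0.15 (SE), adjusted p = 0.00191).

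Of 44 genes of the MYC network and ribosome assembly, 27 were lower and 1 higher (background 10.1% and 8.37%), median -0.36 against 0.086 in the control. The lower count was 14 without the course block, 15 without course 2 and 17 without course 3. MYC itself read 4340, 3912 and 4617 at 24 h and 4072, 2761 and 3192 at 48 h (log2 change -0.37 ± 0.11 (SE), adjusted p = 0.029), with overlapping ranges, and MYCN was not called (log2 change 0.45 ± 0.27 (SE), adjusted p = 0.337). CAD, which starts pyrimidine synthesis and whose probe sets differ in sign, read 729.7, 379 and 406 at 24 h and 363, 216 and 252 at 48 h (log2 change -0.80 ± 0.12 (SE), adjusted p = 0.000205). ODC1, of polyamine synthesis, read 3846, 3849 and 3370 at 24 h and 2264, 2222 and 2121 at 48 h (log2 change -0.74 ± 0.091 (SE), adjusted p = 3.37e-05), and NIP7, a ribosome assembly factor, 325, 471 and 471 at 24 h and 229, 262 and 248 at 48 h (log2 change -0.72 ± 0.11 (SE), adjusted p = 0.000236). MLX was the member called higher (0.20), also with probe sets of both signs. CAD and NIP7 were not called without the course block (adjusted p = 0.0673 and 0.0838). MYC was not called without course 2 or 3 or without the course block (adjusted p from 0.0669 to 0.263). MLX was not called without course 1, 2 or 3 or without the course block (adjusted p from 0.0628 to 0.385). CACGTG, the E-box that MYC reads, stood in 21.6% of the 37 promoters of this list and in 7.83% of those of all genes tested. By contrast the structural ribosomal proteins gave 0 of 38 calls in either direction with limma, and 0 at an unadjusted p under 0.05, with a median of 0.047 (-0.041 after median centring) against 0.35 in the control.

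Of the 12 largest rises, 4 were in the list of neuronal differentiation genes. Of 77 neuronal differentiation genes, 24 were called higher and 5 lower, against 8.37% and 10.1% of all genes. Their median was 0.25, with 0.25, 0.27 and 0.35 by course and -0.057 in the control. The counts were 21 and 7 with median centring, and 20 or 21 higher with 1 course left out. The other 48 members were not called.

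The adhesion molecule CNTN2, which marks young axons, had the second largest rise under the rule for named genes. Its signal was 22.5, 23.2 and 25.7 at 24 h and 606, 327 and 903 at 48 h (log2 change 3.87 ± 0.26 (SE), adjusted p = 1.43e-07). At 24 h all 3 signals were a little above the array medians, and at 48 h all were far above them. The control read 31.6 at 24 h and 11.2 at 48 h. L1CAM, another axonal adhesion molecule, read 2.0, 2.8 and 2.5 at 24 h and 30.8, 21.5 and 61.8 at 48 h (log2 change 1.48 ± 0.25 (SE), adjusted p = 0.00053), and NFASC, of the axon initial segment, 155, 122 and 186 at 24 h and 276, 225 and 330.4 at 48 h (log2 change 0.78 ± 0.17 (SE), adjusted p = 0.0043). L1CAM was below the array medians at 24 h, NFASC well above them, and neither had overlapping ranges. The probe sets of NFASC differ in sign.

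In the cytoskeleton group, DCX, the microtubule protein of migrating neurons, read 11.6, 16.6 and 34.2 at 24 h and 86.4, 157 and 561 at 48 h (log2 change 2.61 ± 0.32 (SE), adjusted p = 3.61e-05). STMN2, of the growth cone, read 5.7, 13.8 and 21.0 at 24 h and 21.0, 37.0 and 123 at 48 h (log2 change 1.17 ± 0.25 (SE), adjusted p = 0.0041); its ranges overlapped. Smaller rises among abundant genes included TUBA1A (0.59), MAP1A (0.84), INA (0.68) and STMN3 (0.97). TUBB2B, a tubulin of young neurons, fell: 923, 815 and 839.6 at 24 h and 627, 454 and 498 at 48 h (log2 change -0.70 ± 0.15 (SE), adjusted p = 0.00385). NEFH, the heavy neurofilament, fell by 1.12 on the log2 scale. TUBB3 (log2 change -0.39 ± 0.13 (SE), adjusted p = 0.0557) and MAP2 (log2 change 0.25 ± 0.24 (SE), adjusted p = 0.613), both widely used neuronal markers, were not called. MAP2 was above the array median on only 5 of 24 arrays, so its missing call says little. STMN2 was not called without course 3 or without the course block (adjusted p = 0.0508 and 0.063). MAP1A was not called without the course block (adjusted p = 0.0806).

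Receptors, channels and synaptic proteins held several of the larger rises of the neuronal list. SSTR2, a somatostatin receptor, read 59.1, 37.8 and 48.5 at 24 h and 898, 619.9 and 976 at 48 h (log2 change 3.70 ± 0.20 (SE), adjusted p = 2.14e-08), and GRIA2, an AMPA receptor subunit, 1.5, 7.5 and 18.6 at 24 h and 115, 204 and 548 at 48 h (log2 change 3.39 ± 0.31 (SE), adjusted p = 2.43e-06). CPLX1, a complexin that binds the vesicle fusion machinery, read 236, 114 and 141 at 24 h and 1694, 1288 and 1568 at 48 h (log2 change 3.14 ± 0.14 (SE), adjusted p = 6.30e-09). In each of these the 3 arrays at 48 h stood above the 3 at 24 h. SCN3A, a sodium channel, read 3.2, 16.4 and 32.3 at 24 h and 146, 180.1 and 285 at 48 h (log2 change 2.77 ± 0.22 (SE), adjusted p = 5.15e-07) and GRIK2, a kainate receptor, 13.7, 6.5 and 8.3 at 24 h and 47.5, 45.3 and 78.1 at 48 h (log2 change 1.50 ± 0.18 (SE), adjusted p = 2.67e-05). ERC2, of the active zone, went the other way with 254, 292 and 456 at 24 h and 116, 81.4 and 87.1 at 48 h (log2 change -1.63 ± 0.21 (SE), adjusted p = 5.88e-05).

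RNA binding proteins of neurons were divided. ELAVL2 read 295, 350.2 and 480.1 at 24 h and 1490, 1581 and 1791 at 48 h (log2 change 2.09 ± 0.16 (SE), adjusted p = 3.15e-07) and RBFOX3, the NeuN antigen, 2.0, 3.3 and 0.8 at 24 h and 23.5, 36.4 and 47.2 at 48 h (log2 change 1.50 ± 0.21 (SE), adjusted p = 0.000112). RBFOX1, of the same family as RBFOX3, fell: its signals were 76.1, 92.4 and 78.3 at 24 h and 49.5, 38.9 and 25.5 at 48 h (log2 change -0.89 ± 0.20 (SE), adjusted p = 0.00641). RBFOX3 was below the array medians at 24 h and modestly above them at 48 h. SCN3A, GRIK2, ELAVL2, RBFOX3, L1CAM, NFASC and the other list members given here beyond the 3 largest were chosen after their values were seen. RBFOX1 was not called without course 3 (adjusted p = 0.143). NFASC was not called without course 2 (adjusted p = 0.0545).

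**Figure D2:**
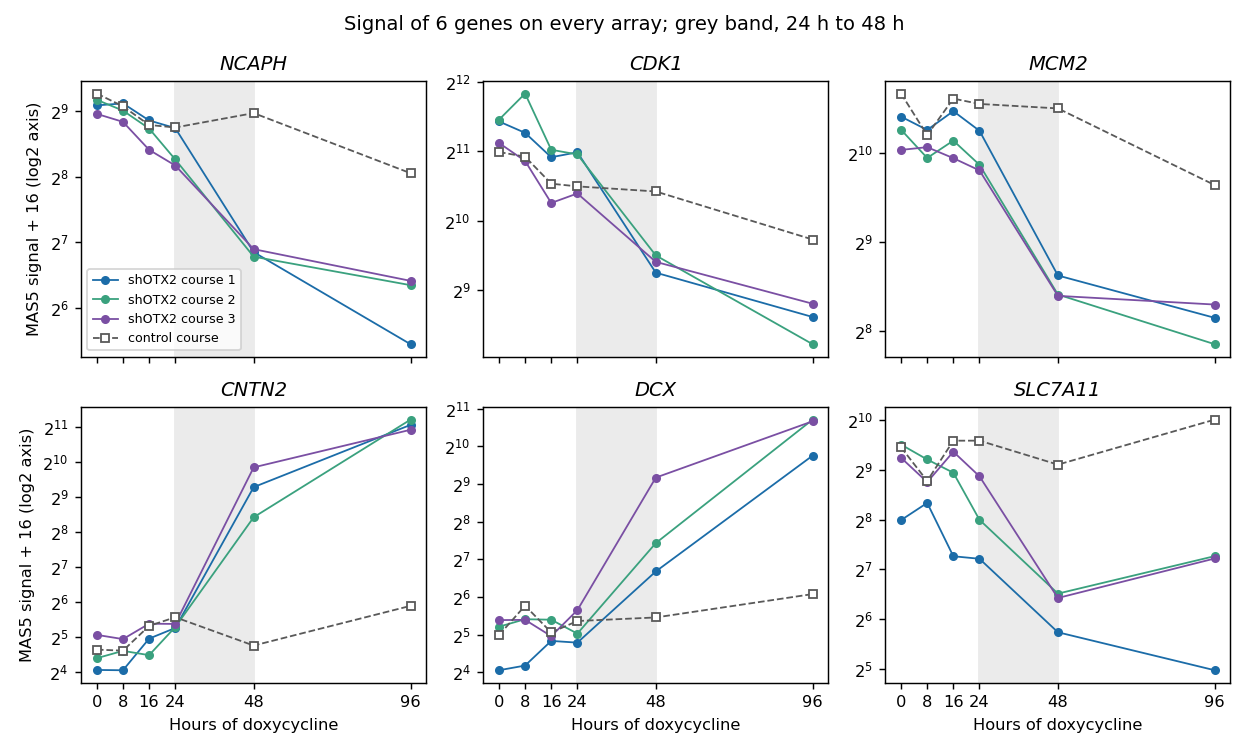
MAS5 signal plus 16 on a log2 axis against hours of doxycycline for NCAPH, CDK1, MCM2, CNTN2, DCX and SLC7A11, with 1 line for each shOTX2 course (filled circles), a dashed line for the control course (open squares) and a grey band from 24 h to 48 h. NCAPH, CDK1 and MCM2 lie lower in all 3 courses at 48 h than at 24 h, CNTN2 and DCX higher, and SLC7A11 lower.

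Of 44 proneural and neuronal transcription factors, 8 were called higher and 2 lower (background 8.37% and 10.1%), median 0.11, and 0 were lower without course 1 or course 3. EBF1, a helix-loop-helix factor of neurons leaving the cycle, read 70.3, 129 and 116 at 24 h and 270.4, 563 and 611 at 48 h (log2 change 1.99 ± 0.14 (SE), adjusted p = 1.65e-07). NHLH1, a basic helix-loop-helix factor of early neurons, read 38.0, 41.8 and 39.4 at 24 h and 178, 138 and 209.8 at 48 h (log2 change 1.76 ± 0.21 (SE), adjusted p = 1.93e-05), and INSM1, a zinc finger factor of neuronal precursors, 3.4, 2.3 and 6.6 at 24 h and 24.2, 17.4 and 60.1 at 48 h (log2 change 1.22 ± 0.25 (SE), adjusted p = 0.0025). All 3 were higher at 48 h in every course. SOX11 read 1.3, 0.7 and 8.5 at 24 h and 13.0, 21.5 and 74.0 at 48 h (log2 change 1.26 ± 0.24 (SE), adjusted p = 0.0017) and SOX4 2322, 2198 and 2551 at 24 h and 3802, 3524 and 4242 at 48 h (log2 change 0.70 ± 0.11 (SE), adjusted p = 0.000386), both factors of young neurons. POU4F1 (1.18), POU3F2 (0.61) and PAX5 (1.57) also rose. INSM1 and SOX11 were each above the array median on 5 of 24 arrays, and on none at 24 h. The other probe set of INSM1 was not called by limma (0.064, adjusted p = 0.923). The other probe sets of SOX11 were not called either (0.77 and 0.52, adjusted p = 0.0606 and 0.112). ZIC1 fell (-0.43). The call of ST18 (-0.46) rests on a probe set that was above the array median on 0 of 24 arrays, and its other probe sets have both signs. ATOH1, of granule neuron precursors, was not called (log2 change 0.27 ± 0.18 (SE), adjusted p = 0.422), and was above the array median on only 4 of 24 arrays. POU3F2 was not called without course 1, 2 or 3 or without the course block (adjusted p from 0.0534 to 0.137). ZIC1 was not called without course 1 or 3 or without the course block (adjusted p from 0.0646 to 0.226). ST18 was not called without course 1, 2 or 3 (adjusted p from 0.0674 to 0.148).

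Notch pathway genes gave 7 higher and 2 lower of 22 (background 8.37% and 10.1%), and 4 higher without the block or without any single course. The ligand DLL3 read 133, 66.6 and 89.1 at 24 h and 818, 407 and 621 at 48 h (log2 change 2.48 ± 0.17 (SE), adjusted p = 1.37e-07) and the ligand DLL4 4.1, 2.3 and 3.6 at 24 h and 24.1, 19.9 and 12.2 at 48 h (log2 change 0.83 ± 0.15 (SE), adjusted p = 0.000836). MFNG, a sugar transferase that modifies Notch and whose probe sets differ in sign, read 20.3, 13.0 and 25.9 at 24 h and 119.8, 94.4 and 189.8 at 48 h (log2 change 2.04 ± 0.24 (SE), adjusted p = 1.92e-05). All of these were higher in every 48 h array. The ligand JAG2 (-0.53) and the receptor NOTCH2 (-0.53) fell. Of the targets, HES1 (0.68) and HES6 (0.55) rose. JAG2 was not called without course 3 or without the course block (adjusted p = 0.132 and 0.211). HES1 was not called without course 1, 2 or 3 (adjusted p from 0.079 to 0.121). HES6 was not called without course 1 or 3 or without the course block (adjusted p from 0.0747 to 0.182).

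Axon guidance genes gave 8 higher and 3 lower of 41, against 8.37% and 10.1% of all genes, with 1 lower without course 2. SEMA5B, a semaphorin, read 4.6, 8.5 and 9.7 at 24 h and 57.3, 55.1 and 91.3 at 48 h (log2 change 1.81 ± 0.28 (SE), adjusted p = 0.000286), and NRP2, a semaphorin receptor, 106, 93.3 and 129.7 at 24 h and 310.5, 222 and 282 at 48 h (log2 change 1.19 ± 0.13 (SE), adjusted p = 8.76e-06). CXCR4, the chemokine receptor of migrating granule precursors, read 55.8, 41.3 and 40.9 at 24 h and 150, 88.0 and 119 at 48 h (log2 change 1.10 ± 0.19 (SE), adjusted p = 0.000624). Arrays at 48 h were above those at 24 h for each. RELN (-0.71), SEMA3A (-0.47) and SEMA3F (-0.32) fell. RELN was not called without course 2 (adjusted p = 0.0559). SEMA3A was not called without course 2 or without the course block (adjusted p = 0.0646 and 0.0822).

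WNT pathway genes gave 9 higher and 3 lower of 38 (background 8.37% and 10.1%), but the 9 became 4 without the block, 5 with median centring, 4 without course 2 and 2 without course 3, and 1 was lower without course 2. FZD1, a frizzled receptor, read 136, 91.7 and 90.0 at 24 h and 437, 396 and 570.2 at 48 h (log2 change 1.99 ± 0.15 (SE), adjusted p = 2.85e-07). GSK3B, the kinase that marks beta-catenin for destruction, changed by 0.65. FZD5 (-0.81), RYK (-0.37) and LEF1 (-0.59) fell. RYK was not called without course 2 or 3 (adjusted p = 0.0547 and 0.0558). LEF1 was not called without course 1 or 2 or without the course block (adjusted p from 0.0503 to 0.109).

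Of 51 photoreceptor genes, many of which OTX2 and CRX regulate in the retina, 13 were lower and 2 higher (background 10.1% and 8.37%), median -0.024. The lower count was 6 without the block and 5 without course 3, and the higher count was 5 without course 2 or with the filter on dim probe sets and 0 without course 1. GNGT2, the cone transducin gamma subunit, had the largest fall under the rule for named genes, with 208, 207 and 306 at 24 h and 40.3, 37.5 and 53.9 at 48 h (log2 change -2.09 ± 0.18 (SE), adjusted p = 1.17e-06). ABCA4, the disc transporter, read 38.7, 42.1 and 63.8 at 24 h and 8.2, 6.5 and 4.1 at 48 h (log2 change -1.51 ± 0.19 (SE), adjusted p = 3.85e-05), and PRPH2, a disc rim protein, 94.8, 67.2 and 122 at 24 h and 27.0, 26.9 and 38.8 at 48 h (log2 change -1.22 ± 0.14 (SE), adjusted p = 2.05e-05). All 3 had every 48 h signal below every 24 h signal. UNC119, a trafficking protein of the synapse and outer segment, rose (1.46), as did PRDM1 (1.03), a repressor in photoreceptor fate. NRL, the rod factor, read 241, 94.0 and 157 at 24 h and 326, 220.5 and 246 at 48 h and was not called (log2 change 0.71 ± 0.25 (SE), adjusted p = 0.0745). UNC119 was not called without course 1 (adjusted p = 0.105). PRDM1 was not called without course 1 or 3 (adjusted p = 0.113 and 0.0645). TAATCC, the site that OTX2 and CRX read, stood in 22.5% of the 40 promoters of the list and in 4.64% of those of all genes tested, and in 3.89% of the promoters of genes called higher and 3.69% of those called lower.

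Of 36 genes of the integrated stress response, 18 were lower and 1 higher (background 10.1% and 8.37%), median -0.50 against -0.17 in the control. By course the median was -0.37, -0.44 and -0.78. These genes, driven by ATF4, import and make amino acids when supply is short. SLC7A11, the cystine importer, read 132, 239 and 452 at 24 h and 37.3, 75.3 and 69.9 at 48 h (log2 change -1.80 ± 0.29 (SE), adjusted p = 0.000378). SLC7A5, a carrier of large neutral amino acids, read 906, 431 and 735 at 24 h and 184, 208 and 226 at 48 h (log2 change -1.61 ± 0.22 (SE), adjusted p = 8.78e-05). ASNS, asparagine synthetase, read 1560, 1783 and 3789 at 24 h and 1169, 769 and 1010 at 48 h (log2 change -1.17 ± 0.26 (SE), adjusted p = 0.00434). In each, every 48 h signal was below every 24 h signal. Course 3 stood highest at 24 h for SLC7A11 and ASNS, and course 1 for SLC7A5. CTH (-1.39), CEBPB (-1.52) and TRIB3 (-1.08) fell likewise. ATF4 (-0.079, adjusted p = 0.708) and DDIT3 (0.043, adjusted p = 0.932) were not called. DDIT4, an inhibitor of mTORC1 signalling, rose: 283, 231 and 448 at 24 h and 582, 657 and 692 at 48 h (log2 change 1.02 ± 0.22 (SE), adjusted p = 0.00377). SLC7A11 was not called without the course block (adjusted p = 0.0913). ASNS was not called without course 3 (adjusted p = 0.155). DDIT4 was not called without course 2 or without the course block (adjusted p = 0.077 and 0.0533). The control course read 752 at 24 h and 534 at 48 h for SLC7A11 and 5083 at 24 h and 4784 at 48 h for ASNS.

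Sterol and fatty acid synthesis gave 12 lower and 0 higher of 25 with limma (background 10.1% and 8.37%). At an unadjusted p under 0.05 there were 15 lower and 1 higher, where all genes gave 15.3% and 13.9%. The median was -0.31 against -0.077 in the control, and 6 were lower without the block or without course 1 and 7 with the mean of a gene's probe sets. SC5D (-0.82) and EBP (-0.70, probe sets of both signs) act late in sterol synthesis, and ELOVL6 (-0.64) lengthens fatty acids. Hypoxia and glycolysis genes were mixed, 5 higher and 8 lower of 33 (background 8.37% and 10.1%). The counts were 3 and 14 with median centring, 3 and 3 without the block and 3 and 5 without course 2, with 5 lower without course 1 and 3 higher without course 3. SLC2A3, a neuronal glucose transporter, read 80.6, 62.8 and 59.7 at 24 h and 142, 122 and 138 at 48 h (log2 change 0.85 ± 0.12 (SE), adjusted p = 8.28e-05), and PFKP, the platelet form of phosphofructokinase with probe sets of both signs, 485, 402 and 409 at 24 h and 340.3, 233 and 229 at 48 h (log2 change -0.68 ± 0.15 (SE), adjusted p = 0.00442). PFKM, the muscle form (0.47), and BNIP3L, a mitophagy receptor (0.55), rose, and VEGFA (-0.57) fell. Proteasome genes gave 11 lower and 0 higher of 27 with limma (15 and 0 at an unadjusted p under 0.05), with a median of -0.16, but 3 without the block and 2, 4 and 7 without courses 1, 2 and 3. The respiratory chain gave 1 higher and 4 lower of 29, with 12 lower after median centring and 2 without the block. The unfolded protein response gave 1 higher (DNAJB9, 0.35) and 3 lower (SDF2L1, HERPUD1 and PDIA4) of 21, with 0 lower without the block or without course 3 and 1 without course 1 or 2. VEGFA, DNAJB9 and HERPUD1 were not called without course 2 or 3 or without the course block (adjusted p from 0.0881 to 0.317). SDF2L1 was not called without course 1 or 3 or without the course block (adjusted p from 0.0831 to 0.171). PDIA4 was not called without course 1, 2 or 3 or without the course block (adjusted p from 0.0615 to 0.782).

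Calls among the p53 targets and the BCL2 family were few and near the shares over all genes. Of 20 p53 targets 1 was higher and 3 lower (background 8.37% and 10.1%), with 1 lower without the block and 5 with median centring or the filter on dim probe sets. TP53INP1, a stress protein, read 404, 389 and 409.7 at 24 h and 1122, 1092 and 1358 at 48 h (log2 change 1.53 ± 0.11 (SE), adjusted p = 1.93e-07), while AEN (-0.76), DDB2 (-0.70) and TIGAR (-0.44) fell. Of 15 BCL2 family genes 1 was called higher, MCL1 (0.48, probe sets of both signs), and BID (-0.70) and PMAIP1 (-0.50) lower (background 8.37% and 10.1%). Interferon genes gave 4 higher and 2 lower of 32, and 2 higher without course 1 or course 2. IFI44L, an interferon-induced gene, read 15.3, 25.8 and 24.4 at 24 h and 236, 450.2 and 442 at 48 h (log2 change 3.33 ± 0.22 (SE), adjusted p = 1.09e-07), and IFI44 40.2, 37.6 and 45.8 at 24 h and 158, 156 and 138 at 48 h (log2 change 1.54 ± 0.20 (SE), adjusted p = 5.08e-05), with every 48 h signal above every 24 h signal. USP18, which removes ISG15, rose by 1.39, and IFIH1, a sensor of double-stranded RNA, fell: 36.7, 30.6 and 52.2 at 24 h and 3.2, 6.4 and 7.4 at 48 h (log2 change -1.35 ± 0.16 (SE), adjusted p = 2.40e-05). AEN and DDB2 were not called without the course block (adjusted p = 0.103 and 0.23). MCL1 was not called without course 3 or without the course block (adjusted p = 0.0576 and 0.0966). PMAIP1 was not called without course 2 or 3 or without the course block (adjusted p from 0.203 to 0.588). USP18 was not called without course 1 or 2 (adjusted p = 0.0686 and 0.0909).

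The extracellular matrix changed in both directions, 10 higher and 17 lower of 61 (background 8.37% and 10.1%), with 10 lower without course 2. COL1A1, a fibrillar collagen chain, read 90.2, 91.6 and 82.0 at 24 h and 632, 987 and 933 at 48 h (log2 change 3.04 ± 0.28 (SE), adjusted p = 2.52e-06), and SPARC, a collagen-binding glycoprotein, 188, 110.2 and 130.5 at 24 h and 1141, 1123 and 1186 at 48 h (log2 change 2.91 ± 0.17 (SE), adjusted p = 3.67e-08). ITGA7, a laminin receptor chain, read 20.8, 6.5 and 7.1 at 24 h and 64, 71.8 and 168 at 48 h (log2 change 2.03 ± 0.28 (SE), adjusted p = 0.0001). Each rose in every course. The other probe sets of COL1A1 changed by 1.4, 0.98, 0.25 and 0.27, and the last 2 were not called by limma (adjusted p = 0.6 and 0.656). COL1A1 was not called against the control. LAMA1, a laminin chain, fell: 192, 206 and 228 at 24 h and 64.9, 68.8 and 69.9 at 48 h (log2 change -1.42 ± 0.14 (SE), adjusted p = 5.15e-06). CTSV, a lysosomal protease, read 678, 1153 and 787 at 24 h and 151, 287 and 175 at 48 h (log2 change -2.03 ± 0.19 (SE), adjusted p = 2.41e-06), and COL4A3, a basement membrane collagen, 290.5, 577 and 704 at 24 h and 128, 194 and 193 at 48 h (log2 change -1.46 ± 0.12 (SE), adjusted p = 9.08e-07). ADAMTS8 (-1.66), ADAM28 (-1.60) and TIMP3 (-1.34) fell, and TIMP2 (1.34) rose.

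Chromatin regulators of the Polycomb, DNA methylation and BAF groups gave 6 higher and 6 lower of 26 (background 8.37% and 10.1%), with 3 lower without the block. JARID2, a Polycomb cofactor, read 1450, 1088 and 1022 at 24 h and 2672, 2469 and 2254 at 48 h (log2 change 1.06 ± 0.11 (SE), adjusted p = 7.04e-06), and TET2, which oxidizes methylcytosine, 122, 105 and 121 at 24 h and 216, 232 and 248 at 48 h (log2 change 0.91 ± 0.10 (SE), adjusted p = 1.18e-05). SMARCA2 (1.03), SS18L1 (0.80), a neuronal BAF subunit, and DNMT3A (0.57) rose. EZH2, the Polycomb methyltransferase, changed by -0.36 (adjusted p = 0.00819) and EED, its partner, by -0.59. SMARCA2 was not called without course 3 (adjusted p = 0.0736). EZH2 was not called without course 1 or 2 or without the course block (adjusted p from 0.0698 to 0.129).

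Other genes with the largest rises were LRRC10B (43.0, 44.4 and 46.2 at 24 h and 856, 940.4 and 933 at 48 h; log2 change 3.93 ± 0.23 (SE), adjusted p = 4.22e-08), SLC7A7, a carrier of basic amino acids (127, 125 and 130.3 at 24 h and 2075, 1616 and 2322 at 48 h; log2 change 3.80 ± 0.20 (SE), adjusted p = 1.33e-08), and FNDC5, the precursor of irisin (82.9, 71.6 and 73.3 at 24 h and 878, 917 and 1076 at 48 h; log2 change 3.40 ± 0.20 (SE), adjusted p = 4.67e-08). BTBD17 (3.32), PIK3C2B (3.11), a lipid kinase, and LDB3 (3.00), a protein of muscle Z-discs, followed. Among the larger falls outside the lists were those of CA2, a carbonic anhydrase (192, 149 and 156 at 24 h and 56.4, 28.0 and 26.0 at 48 h; log2 change -1.82 ± 0.16 (SE), adjusted p = 1.78e-06), ECEL1, a membrane peptidase (607, 389.8 and 449 at 24 h and 160.5, 92.3 and 102 at 48 h; log2 change -1.90 ± 0.17 (SE), adjusted p = 1.47e-06), and CAV1, of caveolae (153, 262 and 224 at 24 h and 41.6, 59.7 and 47.9 at 48 h; log2 change -1.78 ± 0.13 (SE), adjusted p = 3.13e-07). HBQ1 (-1.85), a globin gene, AQP1 (-1.67), a water channel, BEND4 (-1.64) and SLC60A1 (-1.78, whose probe sets differ in sign) also fell. For all of these no signal at 48 h fell within the range at 24 h.

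Markers of other cell types were read as a check of the cells. The counts of calls below stand beside 8.37% of all genes called higher and 10.1% called lower. Summed signals of 13 immune and endothelial markers were 128.4 to 145.1 at 24 h and 109.8 to 204.6 at 48 h, with 0 of 13 called by limma in either direction and 0 at an unadjusted p under 0.05. The 16 glial markers summed to 841 to 1021 at 24 h and 891 to 999 at 48 h, with 2 higher (GJA1, 1.13; OLIG2, 1.01) and 1 lower (SLC1A3, -0.72). The 17 mesenchymal markers summed to 3536 to 4587 and 4664 to 5562, and to 4630 and 5517 in the control, with COL1A1, SNAI2 (1.60) and PDGFRB (0.92) higher. Their part in the rise of the matrix genes was not tested. Of 13 markers of group 3 and group 4 medulloblastoma, RBM24 (1.46) was higher and PDE6H (-0.59), TRPM3 (-0.52, probe sets of both signs) and MYC lower. Without the block 0 of these were lower. Of 12 markers of the WNT and SHH groups, WIF1 (0.55) and EYA1 (0.36) were called higher, but 0 were with median centring or without the block, and WIF1 was above the array median on 0 of 24 arrays. PDLIM3 was lower (-1.15), while another of its probe sets was called higher (0.65, adjusted p = 0.0395). PDE6H and WIF1 were not called without course 1 or 3 or without the course block (adjusted p from 0.0659 to 0.26). TRPM3 and MYC were not called without course 2 or 3 or without the course block (adjusted p from 0.0669 to 0.448). SLC1A3 was not called without course 2 or 3 (adjusted p = 0.0779 and 0.211). EYA1 was not called without course 1, 2 or 3 or without the course block (adjusted p from 0.0697 to 0.453).

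**Figure D3:**
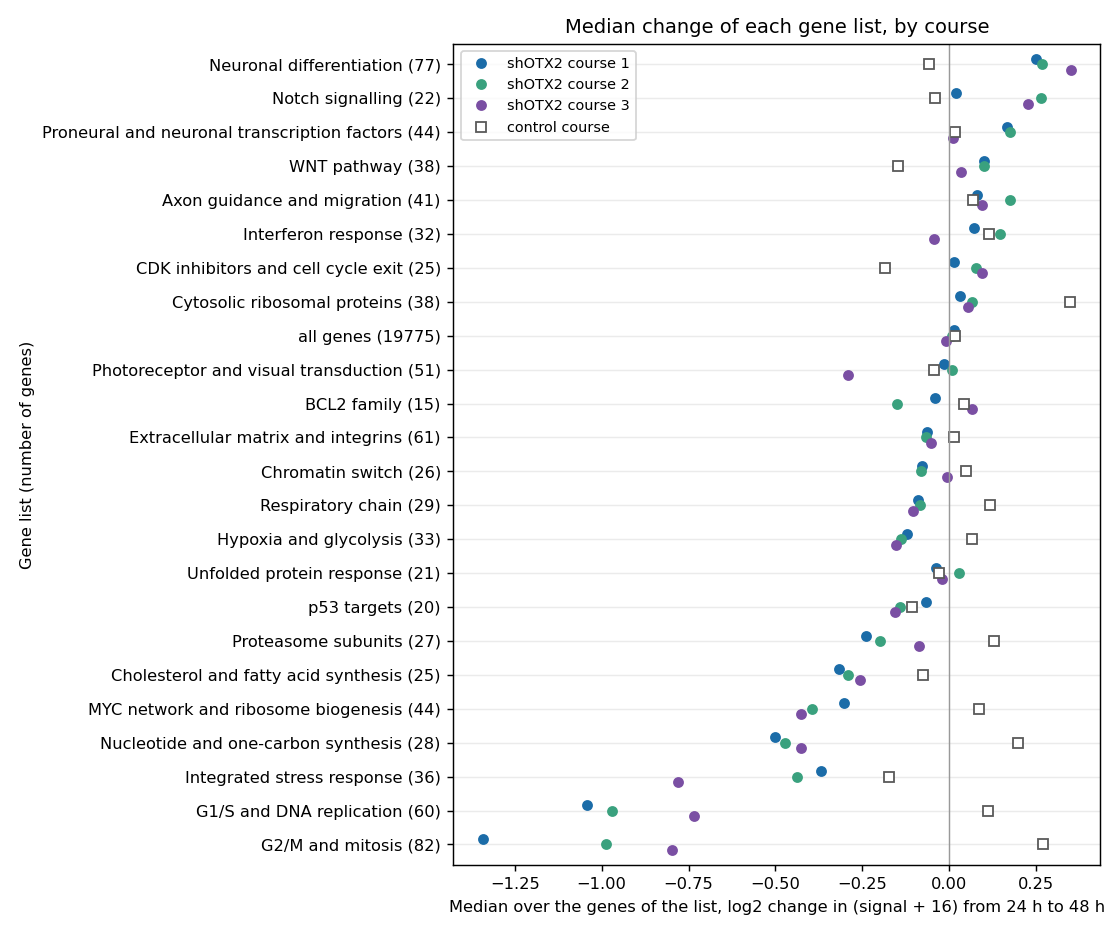
Median log2 change from 24 h to 48 h over the genes of each list (rows, with the number of genes), with 1 filled point for each shOTX2 course and an open square for the control course. The G2/M and G1/S medians of the 3 courses lie between -1.34 and -0.74, left of the control squares at 0.27 and 0.11, and the neuronal medians lie between 0.25 and 0.35.

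The change of the shOTX2 courses was then set against that of the control course, as an interaction in the same fit. It was called higher than in the control for 746 genes (3.77%) and lower for 953 (4.82%). Of the genes called from 24 h to 48 h, 1289 were also called here in the same direction. The 1 control array at each time had no replicate, so its spread was taken from the other groups. The control course itself moved 224 genes up and 244 down by 2-fold or more, against 341 and 229 for the mean of the shOTX2 courses and 427 and 383, 490 and 357, and 542 and 305 for courses 1, 2 and 3 alone. Among the 1656 rising genes, 802 had a control change above 0, and of the 1992 falling genes 820 had one below 0. Since both contrasts use the same 6 arrays, the overlap of their calls is no independent support.

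Against the control, 56 of 82 G2/M genes and 38 of 60 G1/S genes were called lower (background 4.82%), and 1 and 0 higher. NCAPH differed by -1.77 ± 0.41 (SE), adjusted p = 0.016, with control signals of 415 at 24 h and 486 at 48 h. For MCM2 the difference was -1.45 ± 0.21 (SE), adjusted p = 0.0011, and for CDK1 -1.32 ± 0.40 (SE), adjusted p = 0.0609. Of 77 neuronal genes 13 were called higher than in the control and 2 lower (background 3.77% and 4.82%). The largest such differences were LRRC10B (4.10 ± 0.47 (SE), adjusted p = 0.000253), CNTN2 (4.68 ± 0.53 (SE), adjusted p = 0.000253), SLC7A7 (3.95 ± 0.39 (SE), adjusted p = 0.000172), BTBD17 (4.09 ± 0.51 (SE), adjusted p = 0.000418) and CPLX1 (3.91 ± 0.28 (SE), adjusted p = 8.72e-06). On the low side stood CA2 (-2.94 ± 0.33 (SE), adjusted p = 0.000244), CTSV, COL4A3, MTFR2 (-2.37 ± 0.42 (SE), adjusted p = 0.00353), a mitochondrial protein, and DTL (-2.23 ± 0.30 (SE), adjusted p = 0.000627), a ubiquitin ligase adaptor of S phase. CTSV and COL4A3 differed by -2.45 and -2.03 (adjusted p = 0.00147 and 0.000342). Of the stress response list, 3 of 36 were called lower than in the control (background 4.82%), and for SLC7A11 the difference was -1.32 (adjusted p = 0.211). NCAPH was not called against the control without course 2 (adjusted p = 0.08). COL4A3 was not called against the control without the course block (adjusted p = 0.138).

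**Figure D4:**
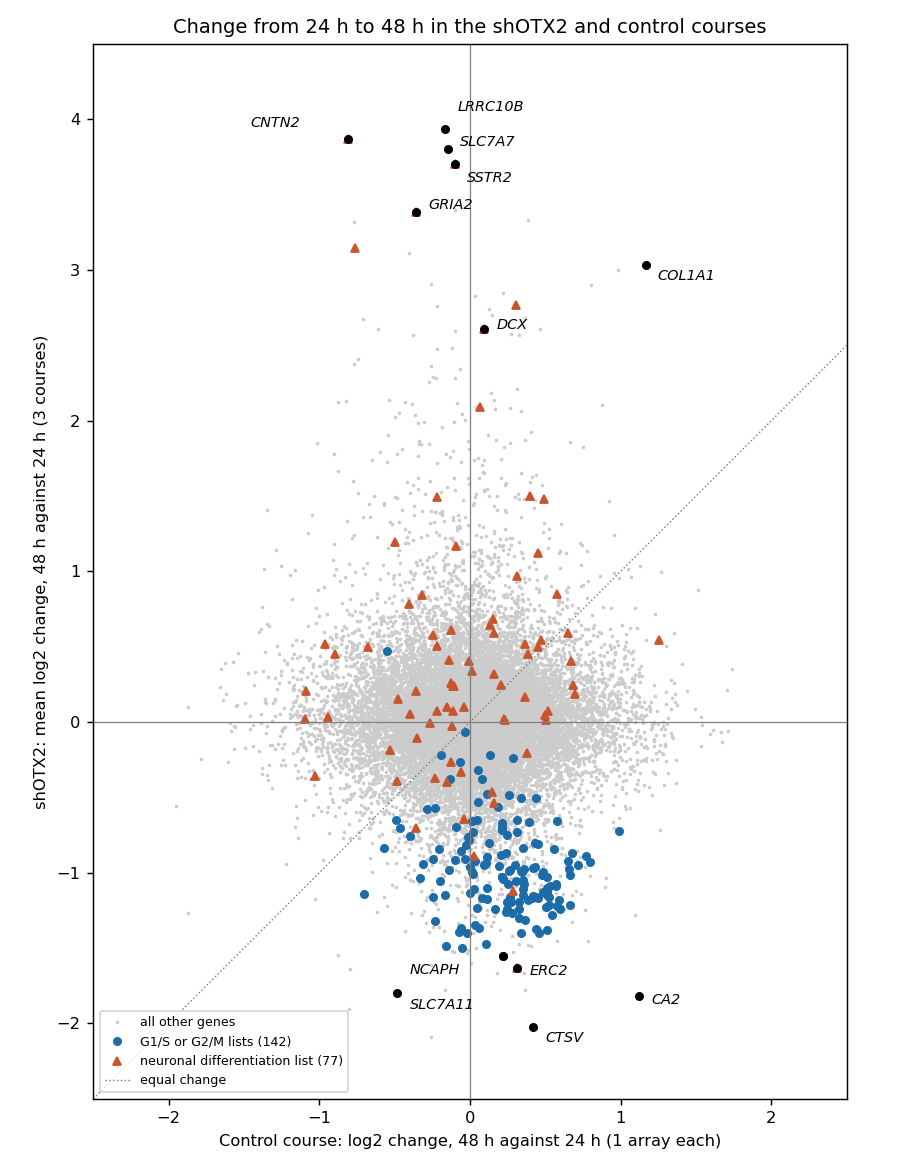
Mean log2 change of the 3 shOTX2 courses from 24 h to 48 h (vertical) against that of the control course, 1 array at each time (horizontal), for all 19775 genes in grey, with the genes of the G1/S and G2/M lists as blue circles and of the neuronal list as orange triangles; the dotted line marks equal change. Most cell cycle genes lie below 0 on the vertical axis and near or above 0 on the horizontal one, and CNTN2, SSTR2 and GRIA2 stand above 3 on the vertical axis.

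Lastly the second day was set against the first: the change from 24 h to 48 h minus that from 0 h to 24 h in the same courses. It was called higher on the second day for 220 genes (1.11%) and lower for 267 (1.35%). These calls depend on single courses, with 0 called without course 2 (2357 at an unadjusted p under 0.05), 9 without course 1 and 224 without course 3, so single genes are given as values beside them. Of the 12 largest rises, all had a larger second-day change, and 5 were already called higher at 24 h than at 0 h. They were chosen on that change, so the count is a description. CNTN2 changed by 0.80 on the first day and GRIA2 by 0.34, against 3.87 and 3.39 on the second. DLL3 changed by 0.89 and then 2.48. In the G2/M list 22 of 82 genes were called for a lower second-day change and in the G1/S list 7 of 60, against 1.35% of all genes. For a higher one, 12 of 77 neuronal genes were called, against 1.11%. The median differences between the days in these lists were -0.90, -0.57 and 0.26, in the same order. NCAPH changed by -0.68 on the first day and -1.55 on the second.

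The genes with the largest negative difference between the days had their highest means at 24 h among 0, 24 and 48 h. They were chosen on that difference, which favours such genes, so this is a description. LOXL1, a lysyl oxidase that cross-links elastin, had a mean signal of 275 at 0 h, 835 at 24 h and 568 at 48 h, with 1037, 729.8 and 737 at 24 h and 671, 561 and 473 at 48 h (log2 change -0.54 ± 0.15 (SE), adjusted p = 0.0238). Its antisense neighbour LOXL1-AS1 had means of 163, 386 and 163 (log2 change -1.14 ± 0.18 (SE), adjusted p = 0.000308). AQP3, a channel for water and glycerol, had means of 185, 442 and 227, and HRH1, a histamine receptor, 29.9, 108 and 60.5. These 4 rose by 24 h, by 1.55, 1.17, 1.20 and 1.42 on the log2 scale, and then fell by 48 h. SPSB4 had a first-day change of 1.53 and a second-day change of -0.42 that was not called (adjusted p = 0.384). The second-day minus first-day difference was -2.08 ± 0.26 (SE), adjusted p = 0.00172 for LOXL1 and -2.12 ± 0.24 (SE), adjusted p = 0.00141 for AQP3. LOXL1 was not called without course 1 or 3 or without the course block (adjusted p from 0.122 to 0.245). HRH1 was not called without course 1 (adjusted p = 0.274). LOXL1-AS1, AQP3 and HRH1 were not called for the difference between the days without course 1 or 2 (adjusted p from 0.0538 to 0.127). LOXL1 was not called for the difference between the days without course 1 or 2 or without the course block (adjusted p from 0.052 to 0.0656). SPSB4 was not called for the difference between the days without course 1, 2 or 3 or without the course block (adjusted p from 0.151 to 0.426).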

How the data were processed

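RNA of D425 cells was measured on 24 Affymetrix arrays, and 6 of them form the comparison of 48 h with 24 h. The deposited values are intensities: 1 MAS5 signal for each of 54675 probe sets and array, made with GCOS and MAS5 per the submitters' processing notes, whose versions are not given in the sources used here. In the deposited table every array has a trimmed mean of 100 after leaving out the top and bottom 2%, and no call of presence was used here. From these, log2(signal + 16) was computed for the 41091 probe sets with 1 gene symbol in the platform annotation, leaving out 1801 with several symbols and 11777 with none there. limma 3.58.1 in R 4.3.3 fitted 12 group means and the course as a block over all 24 arrays (empirical Bayes with an intensity trend), and p-values were Benjamini-Hochberg adjusted over 41091 probe sets. A gene is represented by its probe set with the highest mean, 19775 genes in all. A fold change on this scale understates the change of dim probe sets. The number of arrays limits the precision. The block takes out the level of each course. The p-values thus measure how much changes over time varied between the courses, which the labels call independent, pooled over all times. The course numbers pair the arrays: deviations of same-numbered arrays at 24 h and 48 h correlated at 0.395, 0.169 and 0.144, and over all pairs of times from 0.13 to 0.494 (median 0.196). Alternatives were the fit without the block, with only the arrays compared, with pseudocounts of 4 and 64, a filter on dim probe sets, median centring, quantile normalization, the mean of a gene's probe sets, no trend and leaving out each course. Named genes are OTX2, the 12 largest changes each way among called genes with the same sign in all courses and above the array median, the 3 largest called changes each way in each list, a set of marker genes, and the 5 largest differences each way between the arms and between the days. Others are named from the lists after their values were seen. The members and lists were chosen with earlier results of these data known. Promoters come from RefSeq (GRCh38.p14), matched by symbol for 15360 genes.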

Additional observations from a re-analysis of the deposited data

Results flagged for a closer look

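The results here are named genes whose change from 24 h to 48 h differed between the shOTX2 courses and the control course, by the interaction in the limma fit (adjusted p under 0.05). Values in parentheses are the log2 change in shOTX2 minus the log2 change in the control. The control had 1 array at each time, so its spread was assumed to be that of the shOTX2 arrays. Of genes of mitosis, the difference was negative for FOXM1 (-1.47), NCAPH (-1.77), SPC25 (-1.58), CCNB1 (-1.24), AURKB (-1.50), BUB1B (-1.62), WEE1 (-1.88), CDC20 (-1.55), PTTG1 (-0.93) and MKI67 (-1.28). Of replication and nucleotide genes it was negative for MCM2 (-1.45), CDC6 (-1.32), MCM10 (-1.39), POLE2 (-1.86), RPA2 (-0.59), UHRF1 (-1.44), DNMT1 (-0.63), TFDP1 (-1.23), CCND3 (-0.96), CDC25A (-1.63), DTL (-2.23), TYMS (-1.44) and RRM2 (-1.76). BTG3, ODC1 and EED also lay lower, by differences of -0.80, -0.71 and -1.06. STMN1 (1.02) and BTG1 (0.71) lay higher. CCNB1, PTTG1, RPA2, UHRF1, DNMT1, CDC25A, BTG3 and ODC1 were not called against the control without course 1 or 2 or without the course block (adjusted p from 0.0566 to 0.184). CDC20, CDC6, MCM10 and BTG1 were not called against the control without course 2 or without the course block (adjusted p from 0.0566 to 0.174). FOXM1 and AURKB were not called against the control without the course block (adjusted p = 0.0838 and 0.0967). NCAPH and BUB1B were not called against the control without course 2 (adjusted p = 0.08 and 0.0594). CCND3 was not called against the control without course 1, 2 or 3 or without the course block (adjusted p from 0.05 to 0.475). EED was not called against the control without course 1 or without the course block (adjusted p = 0.0515 and 0.069).

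Neuronal genes with a positive difference were CNTN2 (4.68), DCX (2.51), SSTR2 (3.80), GRIA2 (3.74), CPLX1 (3.91), SCN3A (2.46), ELAVL2 (2.02), RBFOX3 (1.71), NFASC (1.19) and MAP1A (1.16). In transcription factors, Notch, guidance and WNT genes the positive differences were those of EBF1 (2.10), NHLH1 (1.89), DLL3 (2.60), DLL4 (1.02), MFNG (2.09), NRP2 (1.60), CXCR4 (1.35), FZD1 (2.30) and GSK3B (0.78). The negative ones in these lists were NEFH (-1.40), ERC2 (-1.94), ZIC1 (-0.91), ST18 (-0.89), SEMA3A (-0.86), SEMA3F (-0.98) and FZD5 (-0.89), and ST18 was above the array median on 0 of 24 arrays. MAP1A, ERC2 and SEMA3A were not called against the control without course 2 or without the course block (adjusted p from 0.0608 to 0.366). DCX and NFASC were not called against the control without course 1 or 2 or without the course block (adjusted p from 0.052 to 0.275). SCN3A and EBF1 were not called against the control without the course block (adjusted p = 0.112 and 0.165). DLL4 and CXCR4 were not called against the control without course 1, 2 or 3 or without the course block (adjusted p from 0.0569 to 0.176). MFNG and FZD5 were not called against the control without course 2 (adjusted p = 0.0597 and 0.056). RBFOX3 was not called against the control without course 2 or 3 (adjusted p = 0.084 and 0.11). NHLH1 was not called against the control without course 3 (adjusted p = 0.0558). ZIC1 was not called against the control without course 1 or 3 or without the course block (adjusted p from 0.0874 to 0.1). ST18 was not called against the control without course 1, 2 or 3 (adjusted p from 0.0753 to 0.108).

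Matrix and mesenchymal or glial marker genes lay higher than in the control for SPARC (3.16), ITGA7 (2.52), TIMP2 (1.46), GJA1 (1.09), SNAI2 (2.37) and PDGFRB (1.17), and lower for LAMA1 (-1.70), CTSV (-2.45), COL4A3 (-2.03), ADAMTS8 (-2.02) and ADAM28 (-1.60). The chromatin regulators JARID2 (1.74), TET2 (1.00), SS18L1 (1.36) and DNMT3A (0.57) lay higher. Of stress, metabolic, death and interferon genes, DDIT4 (1.90), BNIP3L (0.97), TP53INP1 (1.72), MCL1 (0.87), IFI44L (2.94) and IFI44 (1.45) lay higher. Lower differences there and in the photoreceptor list were those of CEBPB (-1.41), SC5D (-1.36), ELOVL6 (-1.10), PDIA4 (-0.54), TIGAR (-0.58), BID (-1.0), IFIH1 (-1.49), GNGT2 (-1.83) and ABCA4 (-1.50). GJA1, PDGFRB, DNMT3A, IFI44, PDIA4 and TIGAR were not called against the control without course 1, 2 or 3 or without the course block (adjusted p from 0.0573 to 0.797). ITGA7, DDIT4, SC5D, ELOVL6 and BID were not called against the control without course 2 or without the course block (adjusted p from 0.0502 to 0.137). TIMP2 and COL4A3 were not called against the control without the course block (adjusted p = 0.126 and 0.138). ADAMTS8 and ABCA4 were not called against the control without course 1 or 2 or without the course block (adjusted p from 0.0639 to 0.276). TET2 and BNIP3L were not called against the control without course 2 (adjusted p = 0.069 and 0.0718). MCL1 was not called against the control without course 1 or without the course block (adjusted p = 0.0856 and 0.223). CEBPB was not called against the control without course 2 or 3 or without the course block (adjusted p from 0.09 to 0.211). IFIH1 was not called against the control without course 1 or 3 or without the course block (adjusted p from 0.0566 to 0.0915).

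Outside the lists, LRRC10B (4.10), SLC7A7 (3.95), FNDC5 (3.50), BTBD17 (4.09) and PIK3C2B (3.52) lay higher and CA2 (-2.94), CAV1 (-1.61), HBQ1 (-1.73), AQP1 (-1.85) and MTFR2 (-2.37) lower. HBQ1 was not called against the control without course 2 (adjusted p = 0.11). AQP1 was not called against the control without course 2 or 3 or without the course block (adjusted p from 0.0642 to 0.179).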

How the results depend on the processing

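Changes from 24 h to 48 h kept their direction under all alternatives run for the named genes that were called, and the list counts given in the report show where a call depends on 1 course. Without the replicate block, 2015 genes were called from 24 h to 48 h (940 higher and 1075 lower), against 3648 (1656 and 1992) with it. Leaving out 1 course gave 2269 to 2454 calls, 981 to 1144 higher and 1288 to 1330 lower. The difference from the control gave 1699 calls (746 higher and 953 lower), but 440 (211 and 229) without the replicate block, 634 (286 and 348) with only the arrays at 24 h and 48 h, and 1121 with 565 lower without the trend. With 1 course left out it gave 756 to 1179 calls, 353 to 479 higher and 403 to 700 lower. The difference between the days gave 487 calls (220 higher and 267 lower), but 73 (52 and 21) without the replicate block, 128 (61 and 67) with only the arrays at 0 h, 24 h and 48 h, 774 with 449 lower after the filter on dim probe sets, and 179 (119 and 60) without the trend. With 1 course left out it gave 0 to 224 calls, 0 to 66 higher and 0 to 158 lower. Fits without a course have 5 residual degrees of freedom against 10 in all, and those with only the arrays at 24 h and 48 h have 2. For other shifts the cause was not tested. Of 141 named genes called from 24 h to 48 h, 35 lost the call without the replicate block and 19, 24 and 26 without courses 1, 2 and 3, and 103 kept it without each course. Of 75 called against the control, 34 lost the call without the block and 35 kept it without each course. Of 39 called for the difference between the days, 0 kept it. Signals near the array median of 16.3 to 20.6 are close to background, and probe sets there are measured with little precision.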
